A study of Bos taurus with 34 samples.

Results

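Small RNA from the plasma of 12 heifers was compared between 6 animals that became pregnant to artificial insemination (AI-preg) and 6 that became pregnant later in the season from natural breeding with bulls (NB-preg). These 12 libraries were chosen by the pregnancy outcome in their labels, out of 34 libraries in the series, of which 17 are from plasma and the rest are mRNA libraries from peripheral white blood cells (PWBC). The animals were crossbred Angus-Simmental beef heifers kept in the same herd. All of them went through estrous synchronization and were inseminated with semen from a single sire, and blood was drawn immediately after insemination, so no animal of either group carried a pregnancy when it was sampled. The outcome was called later by rectal palpation, from the presence of a conceptus and its apparent age. NB-preg heifers had therefore also been inseminated, and their group joins a failed insemination with a later success. Each library is 1 heifer at 1 time, with no second draw. Plasma from 5 heifers that did not become pregnant entered the model fit and is given as a further reference. Of the 27570 genes in the table, 1086 had over 1 CPM (counts scaled to a common library total) in 5 or more of the 17 plasma libraries and were analysed, whatever their type.

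MicroRNAs (miRNAs) are short RNAs cut from hairpin precursors that guide Argonaute proteins to messenger RNAs and lower their translation or stability. Blood plasma carries them outside cells, in vesicles or bound to proteins, and most of those in the circulation are known to come from blood cells, the vessel lining and the liver. Some are made almost exclusively in a single tissue, such as miR-122 in liver, miR-133a in muscle and miR-375 in endocrine and epithelial cells, so their plasma levels are used as readouts of release from that tissue. In cattle, circulating miRNAs are studied as markers of fertility and of early pregnancy. The counts here are per hairpin gene, so the arms of a hairpin were not told apart, and a read that matched several places in the genome was not counted. Of the 1086 genes, 119 could be identified as miRNAs (111 by name and 8 as an identifier listed as miRNA with no symbol), 145 were listed as protein-coding, and 822 were identifiers for which no name was at hand. With the same filter, the authors retained more miRNAs than could be identified here, so the last class holds further miRNAs. It can also hold other small RNAs and protein-coding genes that were not listed. Statements on miRNAs below cover the 119 identified ones only.

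AI-preg library totals lay between 1073910 and 9091334 counts, those of NB-preg between 4410205 and 11878390, and the geometric mean in AI-preg was 0.653-fold that in NB-preg (two-sided p = 0.314 by exact permutation), which is within the spread of the animals. A single unnamed gene, ENSBTAG00000037264, took most of these counts. Levels below are therefore CPM of the counts of the genes kept other than that gene, which came to between 351967 and 3847874 per library in AI-preg and between 504059 and 5732456 in NB-preg (1.00-fold, two-sided p = 0.994 by exact permutation). In these units 3 counts, the upper limit that a count of 0 allows, equal between 0.523 and 8.52 CPM depending on the library. The values come from separate animals, and p-values measure the spread between them.

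The plasma small RNA of the 2 groups was not told apart by any single gene. At an adjusted p under 0.05 (edgeR quasi-likelihood test, Benjamini-Hochberg over 1086 genes), 0 of 1086 genes were called, which is 0% of those tested, and the lowest adjusted p was 0.996. At an unadjusted p under 0.05, 28 genes were found, 16 higher in AI-preg (1.47% of the genes tested) and 12 lower (1.10%), and none of the 119 miRNAs was among them. DESeq2 on the same counts called 0 genes as well, with 37 at an unadjusted p under 0.05. With ENSBTAG00000037264 left out of the total, the differences were centred on 0. Of the 119 miRNAs, 60 were higher in AI-preg and 59 lower, with a median log2 fold change of 0.0035. The median over all 1086 genes was -0.021. This centre moves with the total used, as given below, and is not by itself a result about the groups.

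An absence of calls does not show that the groups were alike, and the intervals give the differences that these 12 libraries allow. The 95% interval of the log2 fold change reached 1.25 to each side in the median miRNA and 1.64 in the median gene without a name. It lay inside a 2-fold difference in both directions for 6 of the 119 miRNAs. These were MIR423, MIR375, bta-mir-30a, MIR30E and the more counted hairpin of both bta-mir-181a and bta-mir-320a. For the less counted hairpin the interval reached past 2-fold, to 1.52 for bta-mir-181a and 1.07 for bta-mir-320a. MIR423, which had the narrowest spread between heifers of all well counted miRNAs, differed by a log2 fold change of -0.12 with a 95% interval from -0.84 to 0.60. For the other miRNAs the interval reached past 2-fold in at least 1 direction, so a difference of that size could not be told from none with these animals and this depth.

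The choice of total shifted the values of all genes and turned the sign of 380 of the 1086. With ENSBTAG00000037264 counted in the library total, the median log2 fold change of all genes moved by 0.58, from -0.021 to 0.56, and 111 of the 119 miRNAs had a positive value in place of 60. The split at an unadjusted p under 0.05 moved with it, from 16 higher and 12 lower to 30 higher and 2 lower. Still 0 genes passed an adjusted p of 0.05, and the sign of 51 of the 119 miRNAs differed between the totals. Directions below are relative to the total without that gene. Of the named miRNAs given a negative log2 fold change over all 12 libraries below, bta-mir-133a and bta-mir-3956 stayed negative with the other total and the rest turned positive.

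**Figure D1:**
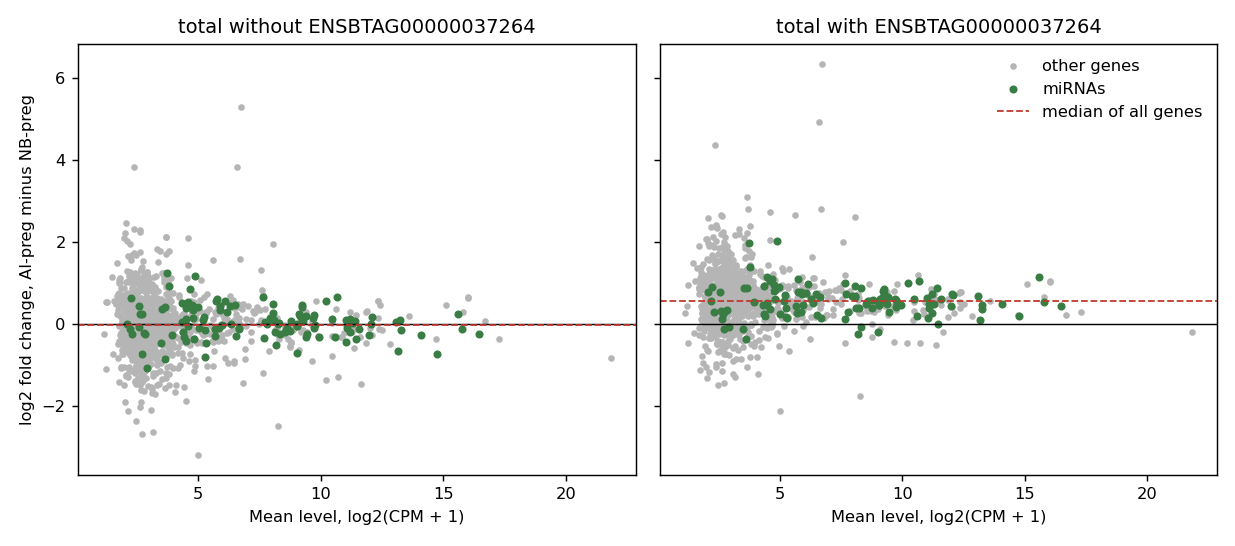
Each point is 1 of the 1086 genes, with the mean level over the 12 libraries on the x axis, as log2(CPM + 1), and the log2 fold change (AI-preg minus NB-preg) on the y axis, under a total without ENSBTAG00000037264 (left) and with it (right). miRNAs are green and the dashed line is the median of all genes, which sits at -0.021 on the left and 0.56 on the right, so that the whole cloud is shifted upward by the choice of total.

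ENSBTAG00000037264 alone took between 49.7% (heifer 119) and 85.7% (heifer 99) of the counts of the genes kept in AI-preg, with a median of 69.7%. In NB-preg its share ran from 51.6% (heifer 93) to 90.0% (heifer 116), with a median of 83.1%. Counting error is negligible here, since the widest 95% Wilson interval of the 12 libraries spanned 0.178 percentage points, and it covers counting error only. The mean share of AI-preg was 68.0% ± 12.9 (SD, n = 6) and that of NB-preg 78.1% ± 13.6 (SD, n = 6), a difference of -10.1 percentage points that stayed within the spread of the animals (two-sided p = 0.212 by exact permutation). The size of this difference depended on single libraries. It was -15.4 percentage points without heifer 93 (two-sided p = 0.0346 by exact permutation), -6.43 without heifer 119 (two-sided p = 0.407 by exact permutation) and -5.69 without heifers 116, 120 and 121 (two-sided p = 0.556 by exact permutation). The 5 heifers that did not become pregnant had shares between 63.5% and 92.6%. No count of this gene was found in the PWBC mRNA libraries of the same 12 heifers.

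Of the remaining counts, the 119 identified miRNAs took 25.5% to 44.3% in AI-preg and 19.4% to 47.7% in NB-preg. miRNAs among the genes without a name are not in these shares. The mean share was 32.4% ± 7.34 (SD, n = 6) in AI-preg against 35.7% ± 11.2 (SD, n = 6) in NB-preg (two-sided p = 0.556 by exact permutation). The direction turned when all counts formed the denominator, at 10.1% ± 3.57 (SD, n = 6) in AI-preg against 6.88% ± 2.28 (SD, n = 6) in NB-preg, again without passing the test (two-sided p = 0.0952 by exact permutation). Listed protein-coding genes took at most 0.331% of the remaining counts in any of the 12 libraries. Beside ENSBTAG00000037264, 6 of the 10 most counted genes had no name at hand, and these 6 together held 33.3% to 64.1% of the remaining counts. Their log2 fold changes lay between -0.36 and 0.65, with the lowest unadjusted p at 0.124. A pair among them gave counts within 2.07% of each other in all 12 libraries, and the pair was not taken as separate measurements.

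**Figure D2:**
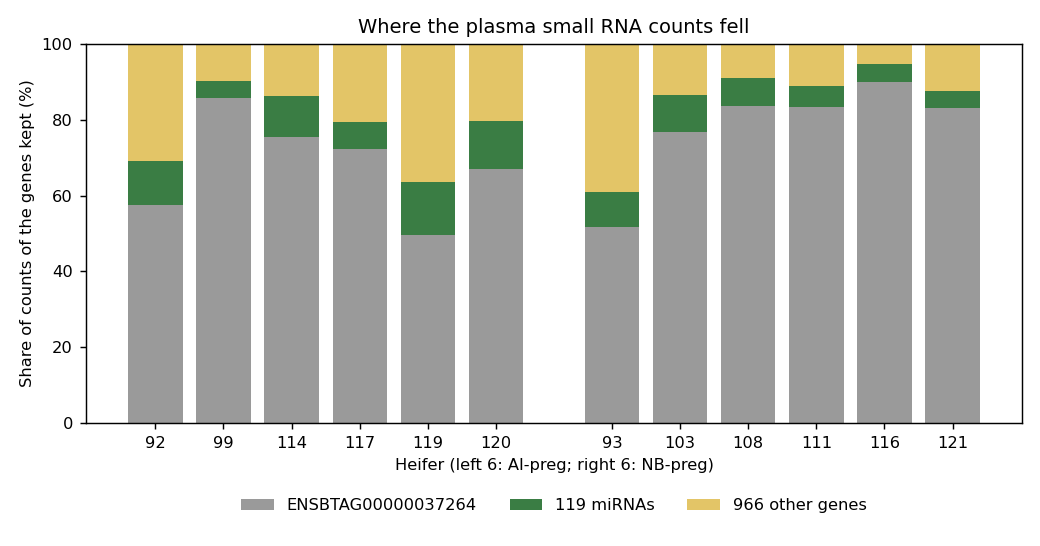
Each bar is the plasma library of 1 heifer, with AI-preg on the left and NB-preg on the right, and shows in percent how the counts of the genes kept fell on ENSBTAG00000037264 (grey), the 119 miRNAs (green) and the other 966 genes (yellow). The grey share spans 49.7% to 85.7% for AI-preg and 51.6% to 90.0% for NB-preg, so the groups overlap widely.

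Of the 119 identified miRNAs, the most counted were shared by both groups. The 10 with the highest mean CPM held 76.1% to 89.9% of the counts of these 119 in every library. miRNAs among the genes without a name are not in these shares. The group means of the 119 ranked nearly alike across miRNAs (Spearman's rho = 0.991, a description over genes, which are not independent). The most counted was ENSBTAG00000029802, listed as miRNA with no symbol, which held a mean of 26.7% of the miRNA counts, followed by MIR423 with 16.9% and bta-mir-10b with 14.0%. MIR423 had CPM of 35628 at the lowest, 54882 at the median and 67169 at the highest in AI-preg, and 35133, 63608 and 75345 in NB-preg. The groups covered nearly the same range. MIR25, of the group related to the miR-17 to miR-92 cluster of growth-promoting miRNAs, had a lowest, median and highest CPM of 8967, 22087 and 30653 in AI-preg and of 8257, 26250 and 98477 in NB-preg. NB-preg heifers 108 and 116 stood above the AI-preg range, heifer 108 narrowly at 32881 CPM and heifer 116 at the highest value.

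Among the next in order, bta-mir-192, abundant in liver and gut, had a median CPM of 14675 in AI-preg (range 2713 to 26792) and 13461 in NB-preg (1157 to 42224). For bta-mir-27b, which restrains fat cell formation, the medians were 6239 CPM (1551 to 25023) and 10739 CPM (1240 to 19700). The medians of bta-mir-181a, a regulator of lymphocyte development, were 10053 CPM (5320 to 15101) and 10583 CPM (5839 to 11735). MIR101, which targets chromatin-modifying enzymes, had medians of 6383 CPM (3293 to 13112) and 9883 CPM (3283 to 27005). In all of these the groups overlapped, and the ends of the ranges were mostly set by the same few heifers.

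**Figure D3:**
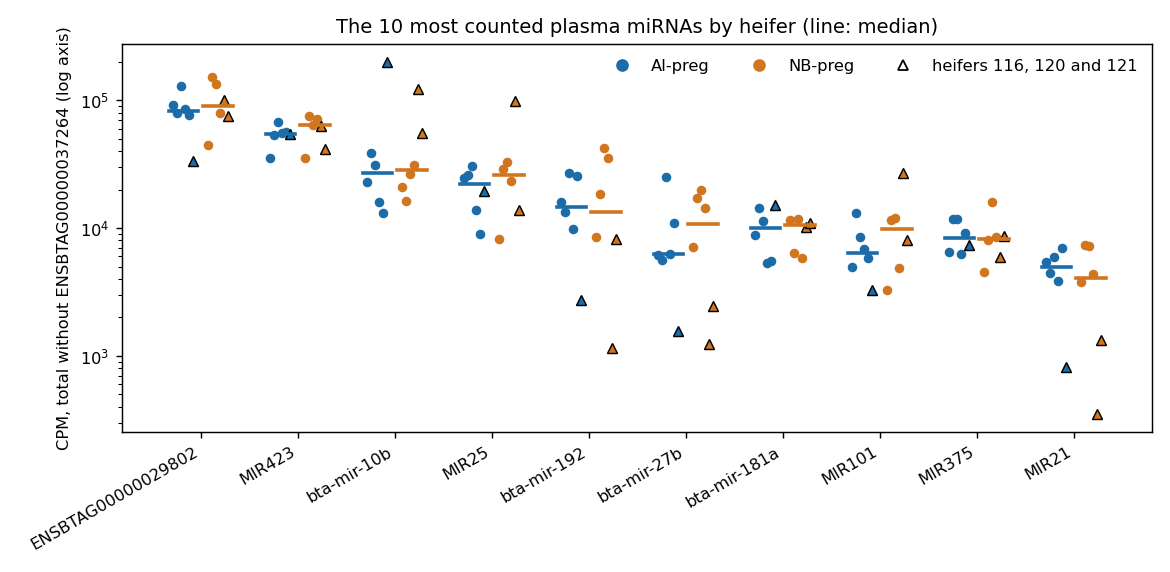
Each point is the level in 1 heifer of 1 of the 10 most counted of the 119 identified miRNAs, in CPM on a log axis. AI-preg is blue, NB-preg is orange and a line marks the median of each group. Triangles mark heifers 116, 120 and 121, which lie above the rest for bta-mir-10b and below the rest for bta-mir-192, bta-mir-27b and MIR21.

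The libraries of NB-preg heifers 116 and 121 and AI-preg heifer 120 stood apart from the other 9 in their miRNA profile. Over the 119 miRNAs, the median Spearman correlation of log2(CPM + 1) with the 9 others was 0.809 for heifer 116, 0.780 for heifer 120 and 0.896 for heifer 121, and at least 0.933 for each of the 9 with one another. Among the 64 miRNAs with a mean over 100 CPM, all 3 libraries were below all 9 others for 26 and above all 9 for 2. The libraries were picked on these same values, so this is a description. bta-mir-10b, a miRNA encoded within a HOX gene cluster, measured 55197 to 200985 CPM in the 3 libraries and 13115 to 38857 CPM in the other 9. The non-pregnant heifers had 11344 to 66956 CPM of it, so their highest value was above that of heifer 121, at 55197 CPM. bta-mir-877, which is cut from an intron without the usual Drosha step, measured 619 to 1077 CPM against 76.6 to 264 CPM.

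Several other miRNAs were lower in the 3 libraries. MIR21, common in platelets and most other cells, measured 349 to 1341 CPM in the 3 libraries and 3786 to 7309 CPM in the other 9. bta-mir-221, known from the vessel lining, had 129 to 437 CPM against 1155 to 5811 CPM. bta-mir-222, the other matched miRNA of the vessel lining, overlapped, at 361 to 639 CPM against 424 to 814 CPM. bta-mir-301a had at most 6.50 CPM against 76.3 to 526 CPM. Heifers 116 and 120 had the fewest counts outside ENSBTAG00000037264 in their groups (504059 and 351967), and heifer 121 had 769514. Heifers 108 and 114, which are among the other 9, had 714782 and 722744. The 3 libraries are 1 of 6 in AI-preg and 2 of 6 in NB-preg, and the part of depth in this pattern was not tested. With all 3 left out, a choice made after seeing the data, edgeR called 0 genes at an adjusted p under 0.05. At an unadjusted p under 0.05 there were 33 genes, 26 of them higher in AI-preg, and 8 of the 28 found with all libraries were among them. No miRNA passed an unadjusted p of 0.05, and the median half-width of the miRNA intervals was 1.10.

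**Figure D4:**
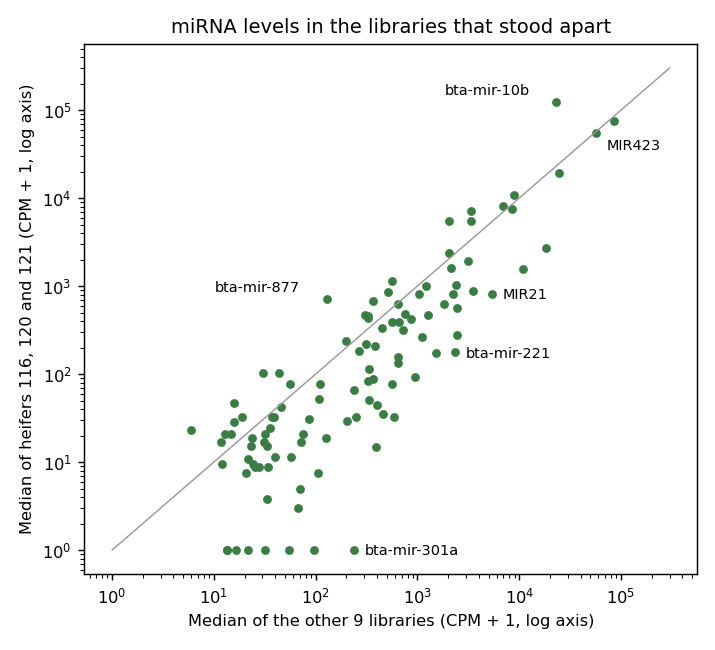
Each point is 1 of the 107 miRNAs with a mean over 10 CPM, with the median level of the 9 other libraries on the x axis and the median of heifers 116, 120 and 121 on the y axis, both as CPM + 1 on log axes, and the line marks equal levels. Most miRNAs lie below the line, bta-mir-301a lies on the floor, and bta-mir-10b and bta-mir-877 lie well above it.

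Of the miRNAs, bta-mir-122 had the smallest unadjusted p for a higher level in AI-preg, and it is the liver miRNA used as a plasma readout of liver cell release. Its CPM were 1.64 at the lowest, 21.0 at the median and 125 at the highest in AI-preg, and 5.20, 15.3 and 32.2 in NB-preg. Both the lowest and the highest of the 12 libraries were AI-preg, at heifers 99 and 119. The log2 fold change was 1.16 (95% interval -0.37 to 2.69, edgeR quasi-likelihood test, unadjusted p = 0.134). Heifer 119 held 52.6% of the AI-preg sum, and without it the log2 fold change was 0.31. With ENSBTAG00000037264 in the total the value was 2.02, at an unadjusted p of 0.0352 and an adjusted p of 0.935, so bta-mir-122 was then the single miRNA under 0.05. The non-pregnant heifers had 1.92 to 17.8 CPM.

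let-7f, of a family that holds back proliferation genes, was counted on 2 hairpin genes. bta-let-7f had a lowest, median and highest CPM of 1141, 2092 and 2918 in AI-preg and of 617, 1020 and 2535 in NB-preg. MIRLET7F1 followed it closely, with 853, 1375 and 2123 CPM in AI-preg and 435, 798 and 2064 in NB-preg. In both, 3 NB-preg heifers were below all AI-preg heifers. The log2 fold change was 0.65 for bta-let-7f (95% interval -0.53 to 1.83, unadjusted p = 0.268) and 0.56 for MIRLET7F1 (-0.62 to 1.75, unadjusted p = 0.340). The value for bta-let-7f lay between 0.51 and 0.97 when each heifer was left out in turn. Heifers 116 and 121 were among the 3 low NB-preg heifers, and with heifers 116, 120 and 121 left out the log2 fold change was 0.28 for bta-let-7f and 0.24 for MIRLET7F1. The pair is named for the same mature miRNA and was not taken as independent.

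The other miRNAs with the smallest p for a higher level were counted little. bta-mir-2398 had a log2 fold change of 1.25 (95% interval -0.67 to 3.19), which rested on heifer 120 with 79.6 CPM and became -0.30 without it. bta-mir-30f, of the miR-30 family, had a median of 23.7 CPM in AI-preg and 13.9 CPM in NB-preg, with a log2 fold change of 0.86 (-0.60 to 2.33), or 0.49 without heifer 92. bta-mir-34a, a target of p53 that slows the cell cycle, had medians of 12.5 and 8.32 CPM and a log2 fold change of 0.92 (-0.78 to 2.64), or 0.21 without heifer 114, which held 51.4% of the AI-preg sum. Each had at least 1 AI-preg heifer inside or below the NB-preg range.

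Among the 6 miRNAs with the smallest p for a lower level in AI-preg, heifer 116 was the highest NB-preg library in 4. MIR25 had a log2 fold change of -0.73 (95% interval -1.78 to 0.31, unadjusted p = 0.163), which became -0.06 without heifer 116 and turned to 0.18 with ENSBTAG00000037264 in the total. MIR101 had -0.65 (-1.63 to 0.32, unadjusted p = 0.180), -0.17 without heifer 116, and likewise turned, to 0.11, with the other total. bta-mir-2285z, of a miRNA family found in ruminants, had -0.82 (-2.46 to 0.82). Heifer 116 had 202 CPM of it, the other NB-preg heifers at most 26.1, and the value without heifer 116 was 0.62. bta-mir-3956 had a median of 8.19 CPM in AI-preg and 14.1 CPM in NB-preg and a log2 fold change of -0.86 (-2.39 to 0.65), with a range of -1.10 to -0.48 over the fits that left out 1 heifer. No count of bta-mir-3956 was found in heifer 116. The remaining 2 of the 6 were identifiers listed as miRNA without a symbol, with medians of at most 7.24 CPM.

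**Figure D5:**
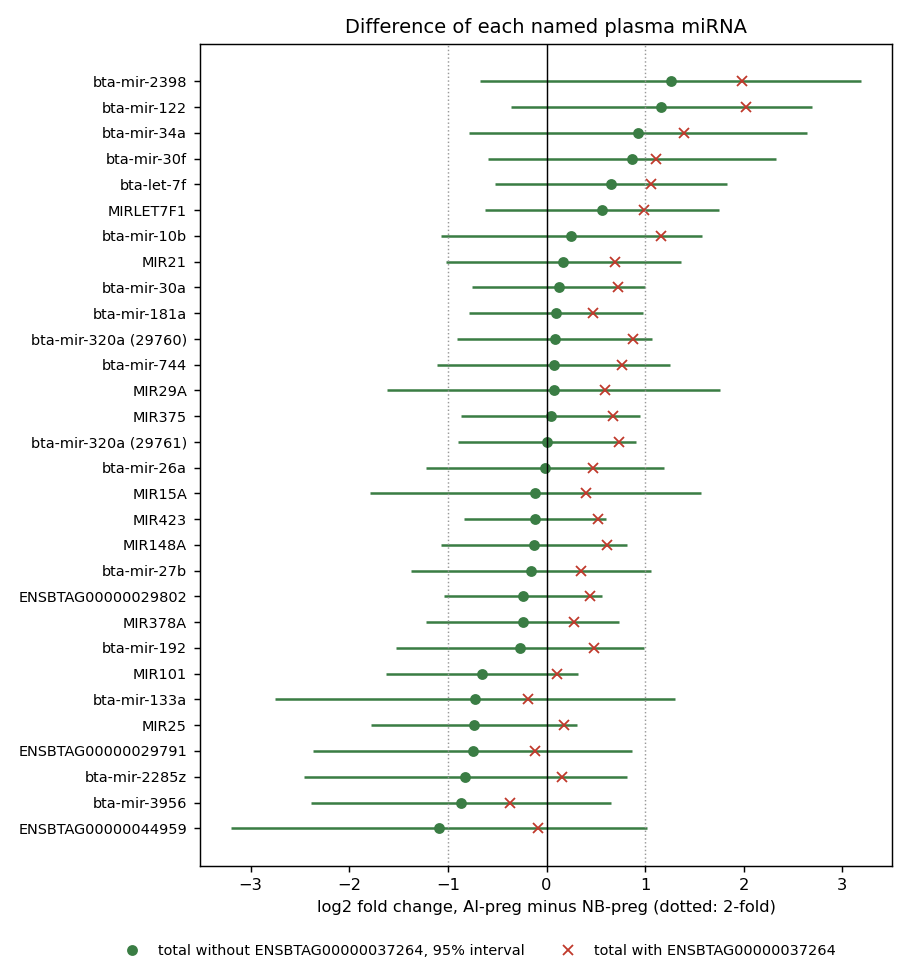
Each row is a miRNA named in the text or the axis, with its log2 fold change (AI-preg minus NB-preg) as a green point and the 95% interval as a line, under the total without ENSBTAG00000037264. Crosses give the value with that gene in the total, dotted lines mark 2-fold, and every interval crosses 0.

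Markers of the tissues that feed plasma did not separate the groups. For liver, 3 of 6 listed entries could be matched (bta-mir-122, bta-mir-192 and MIR148A), of which 0 were called and 1 of 3 had a positive log2 fold change, with a median of -0.13 beside 0.0035 over all miRNAs. With ENSBTAG00000037264 in the total all 3 were positive, with a median of 0.61 beside 0.53 over all miRNAs. Their summed level ran from 4691 to 33235 CPM in AI-preg and from 4866 to 47310 CPM in NB-preg. bta-mir-192 was the largest part except in heifer 116, which had 1157 CPM of it and 3700 CPM of MIR148A. Heifer 120, with the lowest AI-preg sum, had 2713 and 1923 CPM of these. For muscle, bta-mir-133a was the only matched entry of 7, at 17.0 to 1317 CPM in AI-preg and 33.7 to 1745 CPM in NB-preg, with a log2 fold change of -0.72 (95% interval -2.75 to 1.31). Its lowest values of the 12 were those of heifers 120 and 116. For endocrine and epithelial cells, 5 of 10 entries were matched, 0 were called and the median was 0.042. MIR375, the most counted of them, had a median of 8330 CPM in AI-preg (6282 to 11856) and 8270 CPM in NB-preg (4543 to 15879), with a log2 fold change of 0.042 (-0.87 to 0.95).

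Blood cell and vessel markers had 0 calls as well. For platelets, 3 of 10 entries were tested: MIR197, MIR21 and the messenger of TUBB1, the tubulin of platelets, and 0 were called, with a median log2 fold change of -0.37, or 0.039 with ENSBTAG00000037264 in the total. TUBB1 fragments had a median of 40.6 CPM and a highest value of 102 CPM in AI-preg, against 37.4 and 323 CPM in NB-preg, and the lowest library of the 12 was NB-preg, at 8.85 CPM. Its log2 fold change of -0.83 (95% interval -2.29 to 0.64) was 0.039 with ENSBTAG00000037264 in the total. The summed platelet level was 1523 to 10282 CPM in AI-preg and 1561 to 12332 CPM in NB-preg. Most of it came from MIR21 and MIR197, and MIR21 is common in most other cells as well. Heifer 116, which stood apart in its miRNA profile, had the highest TUBB1 value and the lowest MIR21 value of the 12 (349 CPM). For the vessel lining, bta-mir-221 (log2 fold change -0.19) and bta-mir-222 (0.097) were measured, and bta-mir-222 was among the steadiest miRNAs, at 540 to 693 CPM in AI-preg and 361 to 814 CPM in NB-preg. For lymphocytes, the 2 hairpins of bta-mir-181a had 0.093 and 0.35. bta-mir-146a, induced in myeloid cells by inflammation, had 14.2 to 85.8 CPM in AI-preg and 0 to 86.1 CPM in NB-preg. None of the 10 entries for red cells and none of the 7 for gonads and reproductive tract was matched to an identifier, so these were not analysed here.

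The miRNA families showed 0 calls each. Of the let-7 family, 9 hairpins were measured, 6 higher and 3 lower in AI-preg, with a median log2 fold change of 0.14 and a range from -0.32 (MIRLET7G) to 0.65 (bta-let-7f). Of the miR-30 family 3 of 4 were higher, with a median of 0.39. Of the miR-17 to miR-92 group 2 of 5 were higher: bta-mir-19a (0.51) and bta-mir-19b (0.55), which act on brakes of cell growth. MIR25 (-0.73), bta-mir-93 (-0.094) and MIR18A (-0.029) were lower. Of the miR-181 family 4 of 6 were higher, with a median of 0.15, and the miR-10 and miR-125 group had a median of 0.033 over 3. The families of miR-26, miR-15, miR-320, miR-148 and miR-2284 and miR-2285 had medians between -0.13 and 0.045 over 2 or 3 hairpins each, and MIR29A (0.071) and MIR378A (-0.24) were the single matched members of theirs. With ENSBTAG00000037264 in the total, every measured member of these named families had a positive value. For miR-10b, the value of 0.25 (95% interval -1.07 to 1.57) depended on which outlying library was kept, at -0.89 without heifer 120 and 0.85 without heifer 116.

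bta-mir-320a and bta-mir-744 were counted well and differed little. bta-mir-744 had a lowest, median and highest CPM of 247, 563 and 1301 in AI-preg and of 355, 585 and 849 in NB-preg (log2 fold change 0.074, 95% interval -1.11 to 1.26). The more counted of the 2 hairpins of bta-mir-320a, a miRNA made without Drosha, had 2412, 3560 and 7120 CPM in AI-preg and 2216, 3738 and 7997 in NB-preg (0.0076, -0.89 to 0.91). Its copy had 0.081 (-0.91 to 1.07). bta-mir-11995 was not matched to an identifier and was not analysed here. By the selection used for the study, a p of at most 0.03 in both the edgeR likelihood ratio test and DESeq2 with totals over miRNAs, 0 of the 119 miRNAs were selected, and the smallest p was 0.0974 and 0.0588, respectively, in both cases for bta-mir-122. At a p under 0.05 the count was 0 in each tool.

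Genes listed as protein-coding took few of the counts in these libraries. They were 145 of the 1086 genes tested and 7 of the 28 at an unadjusted p under 0.05. None passed an adjusted p of 0.05. SLC6A4, the serotonin transporter with which platelets take up serotonin, was detected in 4 of 6 AI-preg and 3 of 6 NB-preg heifers, with a median of 5.61 CPM (0 to 17.0) in AI-preg and 0.297 CPM (0 to 2.27) in NB-preg. The log2 fold change was 2.47 (95% interval 0.42 to 4.69, unadjusted p = 0.0183, adjusted p = 0.996). LSP1, an actin-binding protein of leukocytes, had a median of 4.35 CPM (2.60 to 28.4) in AI-preg and 0.681 CPM (0 to 3.56) in NB-preg, with a log2 fold change of 2.25 (0.37 to 4.23, unadjusted p = 0.0216, adjusted p = 0.996). Heifer 120 was the highest library in both genes and held 48.4% and 52.7% of the AI-preg sum. In that library these levels stand for 6 counts of SLC6A4 and 10 counts of LSP1. Without it the log2 fold change was 1.94 for SLC6A4 (unadjusted p = 0.0551) and 1.57 for LSP1 (unadjusted p = 0.0937).

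In the other direction, RILPL2, which binds Rab proteins in membrane transport, had a log2 fold change of -3.21 (95% interval -5.19 to -1.26, unadjusted p = 0.00384, adjusted p = 0.996). Its medians were 6.06 CPM (0 to 10.7) in AI-preg and 7.60 CPM (1.36 to 262) in NB-preg, and heifer 116 held 76.8% of the NB-preg sum. Without heifer 116 the log2 fold change of RILPL2 was -1.34 (unadjusted p = 0.117), and without heifers 116, 120 and 121 it turned to 0.45. CLASP1, which stabilizes growing microtubule ends, had medians of 2.35 CPM (0 to 3.57) and 2.76 CPM (0 to 73.4). Heifer 116 held 86.6% of its NB-preg sum, and the log2 fold change moved from -2.65 to -0.32 without that heifer. GSN, gelsolin, which cuts actin filaments and also circulates as a plasma protein, had medians of 6.08 CPM (1.30 to 18.0) and 10.3 CPM (7.12 to 71.4) and a log2 fold change of -1.67 (-3.12 to -0.24), or -0.97 without heifer 116. Of the 28 genes, 8 were highest in heifer 116 and 8 in heifer 120, 21 had under 100 counts in each of the 12 libraries, and 14 had over 50% of the sum of the higher group in 1 heifer. In 4 of the 28 the unadjusted p was under 0.05 in every fit that left out 1 heifer.

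In the white blood cells drawn from the same heifers, these messengers were all counted, in CPM of all counts of the mRNA library. RILPL2 had a median of 47.1 CPM in AI-preg and 41.1 CPM in NB-preg, CLASP1 67.1 and 56.6 CPM, and GSN 7.55 and 12.8 CPM. SLC6A4 had 14.6 and 5.86 CPM, with 0 counts in 1 heifer of each group, and LSP1 had 2.79 and 1.34 CPM. The ranges of the groups overlapped in all 5 genes, and whether cells left in plasma contributed to the plasma values was not tested. Hairpin genes are hardly seen in mRNA libraries, and bta-mir-122, bta-mir-10b and MIR375 had 0 counts there.

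The largest positive value belonged to an identifier without a name. ENSBTAG00000015879 had the smallest p of all, with a log2 fold change of 5.29 (95% interval 2.72 to 7.89, unadjusted p = 0.0012, adjusted p = 0.996). It had a median of 18.0 CPM (0 to 689) in AI-preg and 5.24 CPM (0 to 11.7) in NB-preg, so the groups overlapped, and heifer 119 held 55.8% of the sum. ENSBTAG00000044817, among the identifiers with lower values in AI-preg, had medians of 88.7 CPM (2.84 to 155) and 140 CPM (62.0 to 1682), with a log2 fold change of -2.50 (-4.11 to -0.89), or -1.66 without heifer 108, which held 53.4% of the NB-preg sum. ENSBTAG00000005397, named here after its values were seen, was the only gene of 1086 (0.0921%) in which no AI-preg library overlapped an NB-preg library, at 3.28 to 11.4 CPM in AI-preg and 0 to 2.72 CPM in NB-preg. Those levels come from 3 to 13 counts and 0 to 12 counts per library, and the non-pregnant heifers, at 0 to 5.27 CPM, overlapped both. With heifers 116, 120 and 121 left out, groups separate more easily by arrangement alone, so the counts are not comparable. The count of such genes was then 8 (0.737%), of which 2 were miRNAs. The named miRNA was bta-mir-330, singled out after its values were seen, at 52.6 to 108 CPM in 5 AI-preg and 112 to 133 CPM in 4 NB-preg heifers.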

How the data were processed

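Plasma was cleared of cells by centrifugation, extracellular RNA was extracted with TRIzol, and all of the eluted RNA went into TruSeq Small RNA libraries, which were size-selected on a gel. Per the labels, the authors aligned reads to ARS-UCD1.2 with HISAT2 2.1.0 and deposited raw counts per Ensembl gene from featureCounts 1.6.0. Multi-mapping reads, reads with many mismatches and marked duplicates had been left out by the authors, although ENSBTAG00000037264 still takes most of the counts. The annotation release is given differently in the methods and the code.

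Genes with over 1 CPM in 5 or more of 17 plasma libraries were kept. miRNA and gene names came from lists of identifiers and symbols in the study's supplementary tables, which cover part of the genes and were chosen there for results of these animals. No mature sequence was at hand, so none is shown. Counts were fitted with edgeR 4.0.16 (quasi-likelihood, robust, 1 model of 3 groups, contrast AI-preg minus NB-preg) in R 4.3.3, with library size summed over the genes kept except ENSBTAG00000037264, since the authors' own totals run over miRNAs and that gene outweighs all others. P-values were adjusted by Benjamini-Hochberg over all genes kept. The 95% intervals are Wald intervals from the same fit. Shares and totals were compared with exact permutation tests (scipy 1.17.1) over 924 arrangements. DESeq2 1.42.0, the edgeR likelihood ratio test, other totals, other filters and leaving out each heifer were alternatives. The fits were tested on simulated data. The 17 plasma libraries held 0 identical pairs.

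Genes named are ENSBTAG00000037264, the 8 genes and 6 miRNAs of smallest unadjusted p in each direction, the 10 genes and 10 miRNAs of highest mean CPM, tissue and family markers, and bta-mir-11995, bta-mir-744 and bta-mir-320a. Most identifiers without a name are given only as counts. The groups, gene lists and rules were chosen with earlier results of these data known. White blood cell counts of the same heifers are given as values only, and 0 data columns were left unused.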

Additional observations from a re-analysis of the deposited data

Results flagged for a closer look

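In 88 groups of 6 libraries, the highest or lowest library was tested for its distance from the rest with Dixon's test. The groups were AI-preg or NB-preg values of part of the named genes and of library measures. Of the 88, 8 were past the 95% critical value of 0.625. Chance alone gives about 1 in 20 for groups picked without regard to their values, and some of these genes were named for theirs. Levels in this section are log2(CPM + 1).

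NB-preg heifer 93 lay far from the other NB-preg heifers in 2 library measures. It had 5732456 counts outside ENSBTAG00000037264, where the next had 1684798, and ENSBTAG00000037264 took 51.6% of its counts, where the next lowest had 76.8%. NB-preg heifer 116 was lowest for bta-mir-3956, at 0 against 3.36 for the next, and highest for bta-mir-2285z, at 7.67 against 4.76. AI-preg heifer 120 was lowest for MIR21, at 9.67 against 11.92, for MIR15A, at 0 against 8.69, and for ENSBTAG00000044817, at 1.94 against 6.14. With 0 counts of MIR15A, the limit in that library is 8.52 CPM. AI-preg heifer 92 was lowest for MIR423, at 15.12 against 15.71. Of the 8, the 5 in heifers 116 and 120 fall in libraries whose miRNA profiles stood apart. The values of bta-mir-3956, bta-mir-2285z, MIR21 and MIR15A entered those profiles, so this is not a separate finding.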

How the results depend on the processing

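The count of 0 called genes held under every other total, test, filter and set of libraries tried, except with no filter on low counts, where 2 of 14280 genes were called and 2234 were at an unadjusted p under 0.05. Both were unnamed, ENSBTAG00000015879 and another, each with its highest count in heifer 92. The unadjusted count was between 19 (total over the miRNAs) and 37 (DESeq2) for the other settings with all 12 libraries and all 1086 genes, 4 of 256 with over 10 CPM required, and 23 to 40 over the fits leaving out 1 heifer. Without heifer 116 it split into 18 higher and 5 lower, without heifer 120 into 8 and 20, without heifer 121 into 29 and 11. DESeq2 gave no adjusted p for 4 genes. For genes whose groups do not overlap, the count of 1 became 0 with ENSBTAG00000037264 in the total, with the total over the miRNAs and with over 10 CPM required. It was 2 with no filter. Groups of fewer libraries separate more easily by arrangement alone, and the count was 8 without heifers 116, 120 and 121. It was 1 to 3 leaving out 1 heifer, with 3 reached without heifer 92 or heifer 93. The difference in the share of ENSBTAG00000037264 lay between -15.4 and -6.43 percentage points leaving out 1 heifer. It was past 0.05 only without heifer 93 (exact permutation test, p = 0.0346). The difference in the miRNA share of -3.29 percentage points turned to 3.19 with ENSBTAG00000037264 in the total, since the denominator then holds that gene. No miRNA was selected at a p of 0.03 in both tools. With all 1086 genes tested, 15 genes of any type were, of which 3 in every fit leaving out 1 heifer. The edgeR total of that setting held ENSBTAG00000037264, and DESeq2 used its own scaling. Of 53 genes in the named rule, 12 changed sign with ENSBTAG00000037264 in the total, at most 10 when 1 heifer was left out and 8 without heifers 116, 120 and 121, a choice made after seeing the data. No paired analysis was possible because AI-preg and NB-preg are different heifers that share no number. Depth limits the rarer genes most, since 3 counts stand for up to 8.52 CPM.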

Other observations

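The spread between heifers differed widely among the 107 miRNAs with a mean over 10 CPM. As the SD of log2(CPM + 1) within groups, it was 0.385 for MIR423, 0.390 for bta-mir-222 and 0.459 for MIR140, a miRNA known from cartilage. MIR140 measured 2275 to 5875 CPM in AI-preg and 3278 to 6394 CPM in NB-preg. At the other end were bta-mir-301a with an SD of 3.45, bta-mir-199a with 3.24, MIR15A with 3.16 and MIR29A with 2.96, all of them listed at or near 0 in heifers 116, 120 or 121. bta-mir-199a, known from mesenchymal cells, measured 0 to 2987 CPM in AI-preg and 13.9 to 1425 CPM in NB-preg.

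Hairpin genes named for the same mature miRNA gave similar values where both were well counted. The 2 hairpins of let-7a had mean levels of 679 and 828 CPM and log2 fold changes of 0.19 and 0.14, and those of bta-mir-181b 553 and 858 CPM with 0.25 and 0.22. The 2 hairpins of bta-mir-181a were uneven, at 9777 and 58.6 CPM. In all of these pairs, reads matching both hairpins were not counted, so the values need not give the level of the whole mature miRNA.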
